A study of Homo sapiens with 6 samples.

Results

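ETV1 encodes a transcription factor of the ETS family, and LNCaP is a prostate cancer (PCa) cell line in which this gene is rearranged. H3K4me2 (dimethylated lysine 4 of histone H3) was measured by ChIP-seq in LNCaP cells, and the data described here are the H3K4me2 regions at the ETV1 locus. The members were all records of the 3 deposited peak lists that overlap chr7:13880000-14100000 (hg19), a window of 220 kb that holds the gene with 69.0 kb upstream of its 5′ end and 50.9 kb beyond its 3′ end. The gene lies on the minus strand at about chr7:13930856-14031050, so its 5′ end is at the higher coordinate. The window held 10 of 99997 regions in the vehicle list, 16 of 128134 in the GSK 4 h list and 15 of 127189 in the GSK 24 h list. Merged across the lists, these formed 16 of 151781 union regions, numbered here R1 (farthest upstream) to R16 (farthest downstream).

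LNCaP is an androgen-responsive line. All cells were kept for 3 days in medium with 5% charcoal-stripped serum, which is depleted of hormones. The vehicle cells were given vehicle without GSK2879552. The GSK 4 h and GSK 24 h cells were treated for 4 or 24 h with GSK2879552, which inhibits LSD1 (KDM1A), a histone demethylase. Per the treatment labels these cells were given the androgen DHT as well, whereas the protocol names the inhibitor alone, so effects of androgen and of inhibitor cannot be told apart. Each group had 2 replicates, and the authors made 1 list from both. No replicate spread stands behind any value, so no difference between conditions was tested. Intervals below are 95% intervals that cover counting error only.

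ETV1 belongs to the PEA3 group of ETS factors, which bind DNA at a GGAA core and act in branching organs and in neurons. ETS genes are recurrently rearranged in PCa, where they come under the control of androgen-driven elements. In LNCaP cells the ETV1 gene has been moved to chromosome 14q, and the gene is overexpressed in this line. H3K4me2 marks active and poised promoters and enhancers. LSD1 removes methyl groups from H3K4me1 and H3K4me2, and it also serves as a coactivator of the androgen receptor. The peak lists place reads at the position of ETV1 in the reference genome, so a moved and an unmoved copy of the gene cannot be told apart. The number of copies in these cells was not measured here, nor was the line checked against marker genes.

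Regions are described on 2 scales. The fold is the caller's ratio of a summit to its own surroundings. The summit height is the number of fragments covering the summit, recovered from the deposited fold and p-value, divided by the genome-wide level of the same list. The genome-wide level was 2.08 fragments for vehicle, 1.88 for GSK 4 h and 1.97 for GSK 24 h. Depth was similar, at 9.43, 10.1 and 8.98 tags per kb. The fragment length used for tags was not measured but taken as the shortest region of each list. It was shorter for GSK 4 h (186 bp) than for vehicle (221 bp) and GSK 24 h (219 bp). A height of 10 means a summit at 10 times the genome-wide level, whatever the depth. The fragment length can still enter a height, since it affects both the summit count and the genome-wide level. Ratios of height that involve GSK 4 h may therefore not be fully like for like, and the part of fragment length in them was not tested. A percentile of a height, fold or p-value ranks a region within its own list. A percentile of a ratio ranks it among the same ratios of regions matched between the lists. A percentile of a number of regions ranks the window among stretches of the genome of its length.

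RefSeq (GRCh38.p14) gives ETV1 (gene 2115) 6 start sites. The first is the 5′ end of the gene, and the others lie 176, 719, 723, 1759 and 5013 bp further into it. The windows of the first and last start are printed, since the H3K4me2 regions lay at the first start and not at the last. Each run holds the 250 bases before the start, read 5′ to 3′ along the minus strand, with the ETS core (GGAA, or TTCC for the other strand) in capitals. The first lies at chr7:13991426-13991675 and the second at chr7:13986413-13986662, both in GRCh38.p14.
First start: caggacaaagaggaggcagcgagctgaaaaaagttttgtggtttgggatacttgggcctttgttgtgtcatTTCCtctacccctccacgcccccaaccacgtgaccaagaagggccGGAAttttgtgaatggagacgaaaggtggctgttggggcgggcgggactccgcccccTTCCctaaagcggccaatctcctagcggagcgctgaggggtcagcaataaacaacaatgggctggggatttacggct
Last start: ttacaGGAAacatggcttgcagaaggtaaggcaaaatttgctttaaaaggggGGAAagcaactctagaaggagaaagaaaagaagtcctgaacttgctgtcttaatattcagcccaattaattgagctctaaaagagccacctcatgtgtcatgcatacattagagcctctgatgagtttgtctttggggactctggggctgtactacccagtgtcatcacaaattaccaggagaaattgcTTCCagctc

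The first window had 12 CpG dinucleotides and a GC content of 56%. The last had 0 CpG and a GC content of 42.8%, against a median GC content of 58.0% over 34788 RefSeq promoter windows of this length. Both held 3 ETS cores, which is also the median number, and 92.8% of all windows held at least 1. The letters CACGTG (an E-box) stood once in the first window and in 6.31% of all windows. AGAACA, a single arm of an androgen receptor element (TGTTCT on the other strand), stood in the windows of the starts at 719 and 723 bp, which overlap, and in 12.4% of all windows. These are matches of letters and not measured binding sites.

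The start sites were set beside the H3K4me2 regions by their distance from the 5′ end within each build, without converting coordinates. The gene spans 100195 bp in the rule used here and 100197 bp in GRCh38.p14. In all 3 lists a region covered the starts at 0, 176, 719 and 723 bp. The start at 1759 bp was covered in both GSK lists and lay 20 bp outside the nearest vehicle region. No list had a region at the start at 5013 bp, where the nearest edges were 3274 bp (vehicle), 2856 bp (GSK 4 h) and 3161 bp (GSK 24 h) away.

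The first comparison was the number of H3K4me2 regions at the locus. The window held more regions in both GSK lists than in the vehicle list, at 1.6 times (GSK 4 h) and 1.5 times (GSK 24 h) the vehicle number. Over the whole genome the GSK lists were 1.28 and 1.27 times as long. The excess was smaller with lists of equal length or a stricter threshold. With records within 1 kb merged, it was smaller at 4 h but not at 24 h. With lists of equal length the window held 10 (vehicle), 12 (GSK 4 h) and 12 (GSK 24 h) regions, and the same numbers past a -log10 q of 5. With records within 1 kb merged, it held 7, 9 and 12. Among 4227 genomic tiles of the window's length with at least 10 vehicle regions, 11.9% reached 1.5 times the vehicle number at 4 h, and 9.01% did so at 24 h. The window, with 10 vehicle regions, stood at the lower limit of this set, and tiles with a number like its own were not counted apart. Regions covered 6001 bp of the window in vehicle, 6942 bp in GSK 4 h and 8799 bp in GSK 24 h. In percent of the window this was 2.73, 3.16 and 4.00, against 1.93, 2.31 and 2.43 over the genome. The locus was thus moderately dense in all lists, and its number of regions stood at percentile 72.0 (vehicle), 82.3 (GSK 4 h) and 80.9 (GSK 24 h) among 14053 tiles.

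The regions lay mostly in and close to the gene. In the vehicle list 3 regions were within 2 kb of the 5′ end, 5 were in the rest of the gene body, 2 were upstream and none was beyond the 3′ end. In the GSK 4 h list these numbers were 4, 8, 3 and 1. In the GSK 24 h list they were 2, 7, 3 and 3. The flanks were sparser than the window. A stretch of the same length on the 5′ side held 3 (vehicle), 4 (GSK 4 h) and 3 (GSK 24 h) regions, and one on the 3′ side held 4, 5 and 7. The first region outside the window on the 5′ side was 104 kb upstream of the gene in every list, with a height of 9.12 (vehicle), 13.8 (GSK 4 h) and 15.3 (GSK 24 h). On the 3′ side it was 84.7, 84.3 and 84.4 kb beyond the gene, with a height of 10.1, 12.8 and 9.66.

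**Figure D1:**
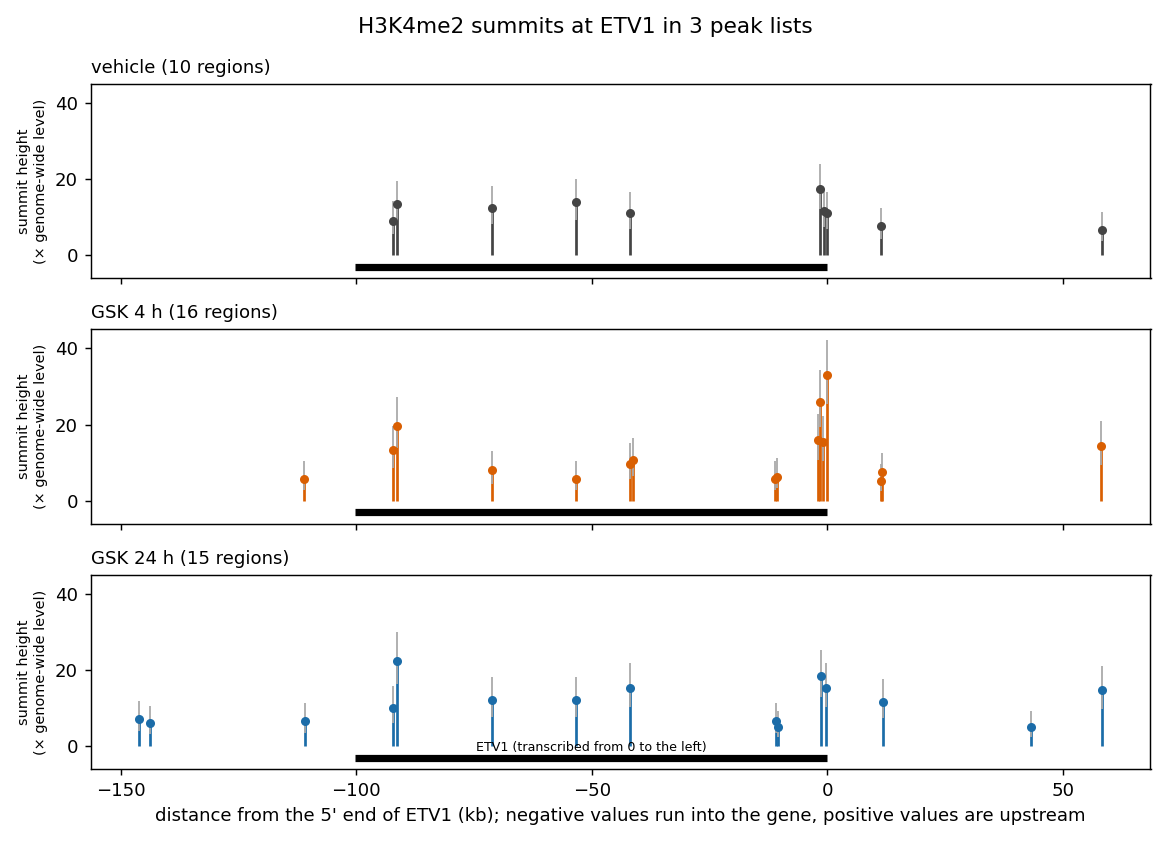
Summit height of every H3K4me2 region of the ETV1 window against the distance of its summit from the 5′ end in kb, with 1 panel per list; grey lines are 95% counting intervals and the black bar is the gene. The 10 vehicle summits lie between 6.72 and 17.3, the 16 GSK 4 h summits between 5.31 and 32.9 and the 15 GSK 24 h summits between 5.09 and 22.4.

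ETV1 was a locus of middling signal. Vehicle summits had a median height of 11.3, close to the 11.04 of the whole list, and the highest stood at percentile 69.7. The median was 10.1 in GSK 4 h and 11.7 in GSK 24 h, against 11.2 and 10.7 in the whole lists. The highest member stood at percentile 86.6 in GSK 4 h and at 80.0 in GSK 24 h. All 41 members gave a whole number of fragments at the summit, from 10 to 62, so single regions rest on few fragments.

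The next question was which ETV1 regions the lists shared. All 10 vehicle regions overlapped a GSK region at 4 h, and all 10 did so at 24 h. Over the genome 84.3% and 86.0% did so. In the other direction, a vehicle region lay under 12 of the 16 regions at 4 h and under 9 of the 15 at 24 h, against 67.0% and 68.0% over the genome. Between the GSK lists, 14 of 16 regions at 4 h overlapped one at 24 h (78.2% over the genome), and 11 of 15 at 24 h overlapped one at 4 h (77.7%). Of the 16 union regions, 8 were in all 3 lists (47.9% over the genome), 8 were absent from the vehicle list (39.8%), 0 were in the vehicle list only (5.44%) and 2 were in both GSK lists only (11.0%). These counts are small and most stand near the genome-wide shares. No ETV1 region was lost from the lists after treatment.

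A cluster of regions at the 5′ end (R4, chr7:14029198-14031429) held the highest summits of the locus in vehicle and GSK 4 h, while in GSK 24 h it was second to R12 in the gene body. The cluster held 3 vehicle regions, 3 GSK 4 h regions and 2 GSK 24 h regions. In each list 1 record covered the 5′ end itself, with its summit 46 bp (vehicle), 149 bp (GSK 4 h) and 189 bp (GSK 24 h) into the gene. This outer record had a height of 11.04 (7.00 to 16.6; 23 fragments) in vehicle, 32.9 (25.3 to 42.2; 62 fragments) in GSK 4 h and 15.3 (10.3 to 21.8; 30 fragments) in GSK 24 h. GSK 4 h was thus the high list at the 5′ end, and its interval did not overlap the others. The 4 h height was 2.99 times vehicle (1.82 to 5.05), and the 24 h height was 1.38 times vehicle (0.777 to 2.49) and 0.463 times the 4 h height (0.289 to 0.727). A ratio of 2.99 stands at percentile 99.9 of the 53752 regions matched 1 to 1 in the 3 lists. R4 is not such a region, since it held several records in each list, so this percentile is not a like comparison. The record was also longer at 4 h, with 864 bp against 464 bp in vehicle and 554 bp at 24 h. The outer record and the inner one described next were singled out after their values had been seen. By the highest record of R4 in each list, GSK 4 h was 1.91 times vehicle (1.25 to 2.96), at percentile 93.1. By the same measure GSK 24 h was 1.06 times vehicle (0.649 to 1.73). The caller's fold of the outer record was 3.50 in vehicle, 6.76 in GSK 4 h and 3.63 in GSK 24 h.

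The inner record of R4 lay about 1.5 kb into the gene, where the vehicle list had its highest ETV1 summit. Its height was 17.3 (12.1 to 23.9; 36 fragments) in vehicle, 26.0 (19.3 to 34.4; 49 fragments) in GSK 4 h and 18.3 (12.8 to 25.4; 36 fragments) in GSK 24 h. Here the 3 intervals overlapped, with a ratio of 1.51 (0.960 to 2.39) at 4 h and 1.06 (0.649 to 1.73) at 24 h. Between the outer and inner records, the vehicle list had another record with a height of 11.5 and the GSK 4 h list one with a height of 15.4. In GSK 24 h the inner record was 1143 bp long and reached across that place. R5 (chr7:14028893-14029103), the next region into the gene, was in the GSK 4 h list only, with a height of 15.9 (10.8 to 22.8; 30 fragments). Which end of the cluster was highest differed, since the inner record led in vehicle and in GSK 24 h and the outer one in GSK 4 h.

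**Figure D2:**
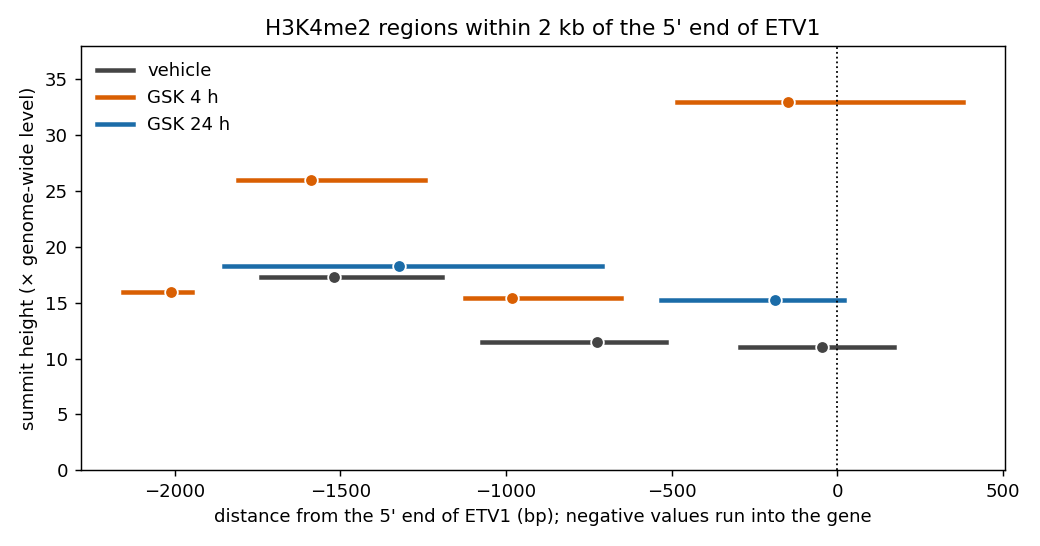
H3K4me2 regions within 2 kb of the 5′ end of ETV1, drawn as bars from their start to their end in bp from the 5′ end (dotted line) at the height of their summit (point), by list. At the 5′ end the GSK 4 h record stands at 32.9, above the GSK 24 h record at 15.3 and the vehicle record at 11.04.

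The caller's fold ranked this cluster lower than its height did. Since it divides a summit by the tags in the surrounding 10 kb, and those tags are high where regions crowd, the leading record of R4 reached fold percentiles of 56.4 in vehicle, 78.6 in GSK 4 h and 38.7 in GSK 24 h. The heights of the same records stood at percentiles 69.7, 86.6 and 73.0. The folds were 5.29, 6.76 and 4.30, and the -log10 q-values 14.5, 30.0 and 11.4.

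The surrounding tags were also read as a further measure, chosen after the data had been seen. The 10 kb take in the regions of the cluster themselves, so the count is not independent of their heights. The highest count in 10 kb around a summit of R4 was 271 tags in vehicle, 447 in GSK 4 h and 347 in GSK 24 h. Relative to the genome-wide level of each list this was 2.87, 4.42 and 3.87 times. Per unit of depth, GSK 4 h was 1.54 times vehicle (1.32 to 1.79) and GSK 24 h 1.35 times vehicle (1.14 to 1.58). Both intervals lay above 1. The matched regions of the genome had a median of 1.13 in each of these comparisons, and the R4 ratios stood at percentiles 94.6 and 80.9. Only matched regions with surroundings above the genome-wide level in both lists have such a ratio, 37778 at 4 h and 38549 at 24 h. GSK 24 h was 0.875 times GSK 4 h (0.758 to 1.01). Both GSK lists therefore had more H3K4me2 tags around the 5′ end of ETV1 than the vehicle list, with the larger number at 4 h.

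The gene body held 5 regions present in all lists, R9 to R13, and they did not move together. R12 (chr7:13939322-13939886), 91.4 kb into the gene, was the highest region away from the 5′ end in both GSK lists, and R10 was in vehicle. Its height was 13.4 (8.93 to 19.4) in vehicle, 19.7 (13.8 to 27.1) in GSK 4 h and 22.4 (16.3 to 30.0) in GSK 24 h. It was 1.46 times vehicle at 4 h (0.872 to 2.48) and 1.67 times at 24 h (1.01 to 2.78). Only the second interval lay above 1, and only just. In fold, R12 stood at percentile 94.8 of the GSK 24 h list. R13 (chr7:13938518-13939099) lies just beyond it toward the 3′ end, with a height of 9.12, 13.3 and 10.2 in vehicle, GSK 4 h and GSK 24 h. Around this pair, 139, 173 and 190 tags lay in 10 kb, a ratio of 1.44 (1.15 to 1.80) for GSK 24 h over vehicle and of 1.16 (0.923 to 1.46) for GSK 4 h over vehicle.

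R10 and R11, in the middle of the gene, had their lowest height in the GSK 4 h list. R10 (chr7:13977328-13977937), 53.4 kb into the gene, had the highest fold of the vehicle members (9.16, percentile 90.2). Its height was 13.9 (9.32 to 20.0; 29 fragments) in vehicle, 5.84 (2.92 to 10.5; 11 fragments) in GSK 4 h and 12.2 (7.82 to 18.2; 24 fragments) in GSK 24 h. At 4 h it was 0.420 times vehicle (0.189 to 0.866), at percentile 4.16 of all matched regions. At 24 h it was 0.877 times vehicle (0.489 to 1.56) and 2.09 times the 4 h height (0.985 to 4.72). R11 (chr7:13959512-13960437), 71.3 kb into the gene, had a height of 12.5 (26 fragments) in vehicle, 7.97 (15 fragments) in GSK 4 h and 12.2 (24 fragments) in GSK 24 h. Its 4 h value was 0.639 times vehicle, with an interval (0.315 to 1.25) that held 1. R9 (chr7:13988973-13990020), 41.9 kb into the gene, was 1 record in vehicle and GSK 24 h and 2 in GSK 4 h, with a highest summit of 11.04, 10.6 and 15.3 in vehicle, GSK 4 h and GSK 24 h.

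Upstream of the gene, R1 was more than 2 times as high in both GSK lists as in vehicle. R1 (chr7:14088813-14089867), 58.3 kb upstream, was the lowest vehicle member, with a height of 6.72 (3.67 to 11.3; 14 fragments). It reached 14.3 (9.45 to 20.9; 27 fragments) in GSK 4 h and 14.8 (9.88 to 21.2; 29 fragments) in GSK 24 h. The ratios to vehicle were 2.14 (1.08 to 4.41) and 2.20 (1.12 to 4.50), at percentiles 97.0 and 98.8 of all matched regions. Both GSK values share the vehicle list, so a low vehicle count enters both ratios. The tags in 10 kb around R1 were 101, 125 and 157 in vehicle, GSK 4 h and GSK 24 h, a ratio to vehicle of 1.15 (0.880 to 1.51) at 4 h and 1.63 (1.26 to 2.12) at 24 h. R3 (chr7:14042236-14043151), 11.5 kb upstream, had a height of 7.68 in vehicle, 7.44 in GSK 4 h, where it was split into 2 records, and 11.7 in GSK 24 h.

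**Figure D3:**
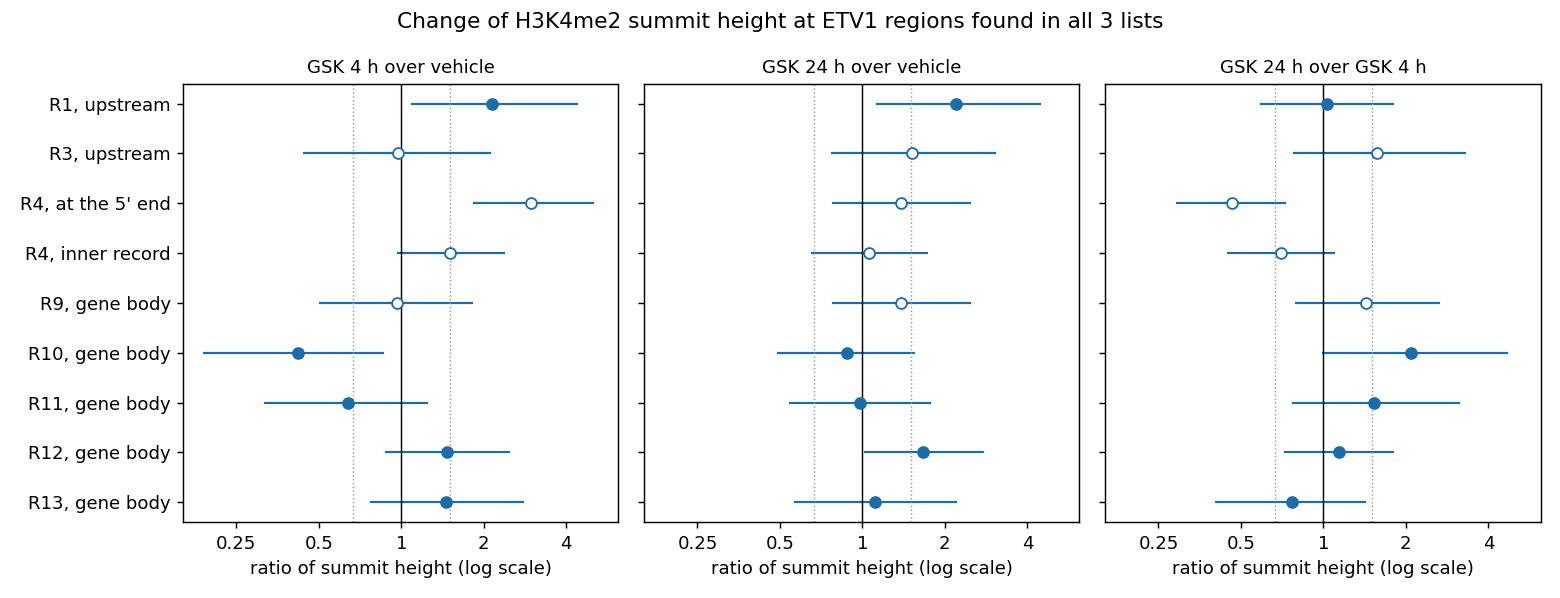
Ratio of summit height on a log scale for the ETV1 regions in all 3 lists, with 95% counting intervals; filled points are regions matched 1 to 1, open points are regions with several records in a list, and dotted lines mark a 1.5-fold difference. In GSK 4 h over vehicle the 5′ end (2.99) and R1 (2.14) lie above 1 and R10 (0.420) below it, while in GSK 24 h over vehicle R1 (2.20) and R12 (1.67) lie above 1. R4 is drawn by its outer and inner records, and the ratio of its highest records (1.91 for GSK 4 h over vehicle) is not drawn.

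Of the 8 shared regions, 5 were matched 1 to 1 in the lists (R1 and R10 to R13), and these were read against 53752 regions matched in the same way. For GSK 24 h over vehicle, 2 of the 5 were higher by at least 1.5 times (15.3% over the genome) and 0 were lower by as much (11.2%). For GSK 4 h over vehicle, 1 was higher (24.5%) and 2 were lower (10.4%). For GSK 24 h over GSK 4 h, 2 were higher (7.99%) and 0 were lower (19.2%). On the caller's fold, neither region that was higher at 24 h than in vehicle reached 1.5 times, since R1 had a ratio of 1.46 (2.20 by height) and R12 one of 1.21 (1.67 by height). By fold R11 was 1.34 times as high at 24 h as at 4 h (1.53 by height), while R1, R10 and R11 in GSK 4 h over vehicle (1.81, 0.455 and 0.634) and R10 in GSK 24 h over GSK 4 h (2.02) stayed past 1.5 times. The comparisons share lists and are not independent. Added over the 5 regions, GSK 24 h was 1.29 times vehicle (1.001 to 1.66; 141 against 116 fragments), GSK 4 h was 1.10 times vehicle (0.841 to 1.43; 115 fragments) and GSK 24 h was 1.17 times GSK 4 h (0.911 to 1.51). The median matched region of the genome had ratios of 1.11, 1.19 and 0.904 for these comparisons, a shift of 0.15, 0.25 and -0.15 on the log2 scale. Divided by that median, the ratios for ETV1 were 1.16 at 24 h and 0.925 at 4 h over vehicle. Among regions whose height in the list left out of the ratio was within the range of the 5 ETV1 regions, the median ratio was 1.17, 1.23 and 0.957. Added over all matched regions, as was done for ETV1, the ratio was 0.793, 0.913 and 0.869. The genome-wide value for GSK 24 h over vehicle thus lay above 1 as a median and below 1 as a sum, and how the ETV1 ratios stand against the genome depends on which is used.

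**Figure D4:**
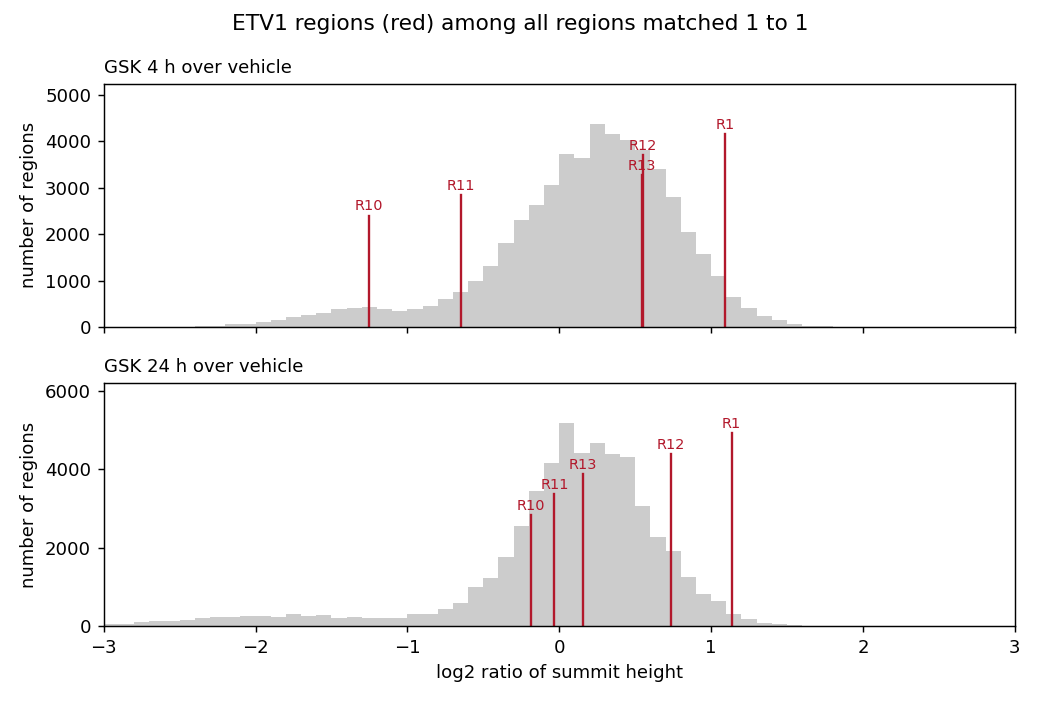
Number of matched regions of the genome by log2 ratio of summit height (grey), with the 5 ETV1 regions matched 1 to 1 in red. R10 and R11 lie in the lower part at 4 h (percentiles 4.16 and 9.28) and closer to the middle at 24 h (23.8 and 34.4), while R1 lies in the upper part in both panels (97.0 and 98.8).

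By height, the 8 ETV1 regions outside the vehicle list were weak, apart from R5. By the caller's fold R5 was weak too, at 3.34 (percentile 10.0 of the GSK 4 h list), with surroundings at 4.40 times the genome-wide level. Its fold was below those of R7 (4.51), R8 (4.16) and R14 (4.16) in the same list. R14 (chr7:13919717-13920332), beyond the 3′ end, and R7 (chr7:14020095-14020486), 10.8 kb into the gene, were in both GSK lists. R14 had a height of 5.84 (11 fragments) at 4 h and 6.61 (13 fragments) at 24 h, and R7 had 6.38 (12 fragments) and 6.61 (13 fragments). R8 (chr7:14019888-14020073) beside R7 was in the GSK 4 h list only, with 11 fragments. The GSK 24 h list alone held R6 on the other side of R7 (chr7:14020542-14020760), R2 upstream (chr7:14074092-14074398), and R15 and R16 beyond the 3′ end (chr7:13887165-13887451 and chr7:13884727-13884980), with 10, 10, 12 and 14 fragments. R6, R7 and R8 stand together as a group of small summits about 10 to 11 kb into the gene that the vehicle list lacks. Where the surroundings were at the genome-wide level, the weakest vehicle regions had 8 fragments. An absent region can therefore lie just under the threshold, and its vehicle height is not known. Length is a further limit, since R5 (211 bp) and R8 (186 bp) were shorter than any vehicle or GSK 24 h region. The shortest regions of those lists had 221 bp and 219 bp.

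Away from the 5′ end, the surroundings of the regions were nearer to the genome-wide level. At 2 of 10 vehicle, 7 of 16 GSK 4 h and 5 of 15 GSK 24 h members the surrounding 10 kb held no more tags than the genome-wide level, against 27.0%, 29.1% and 25.7% of all regions of these lists. At R9 the tags in 10 kb were 107, 122 and 124 in vehicle, GSK 4 h and GSK 24 h, and the ratios to vehicle were 1.06 (0.813 to 1.39) and 1.22 (0.932 to 1.59).

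**Figure D5:**
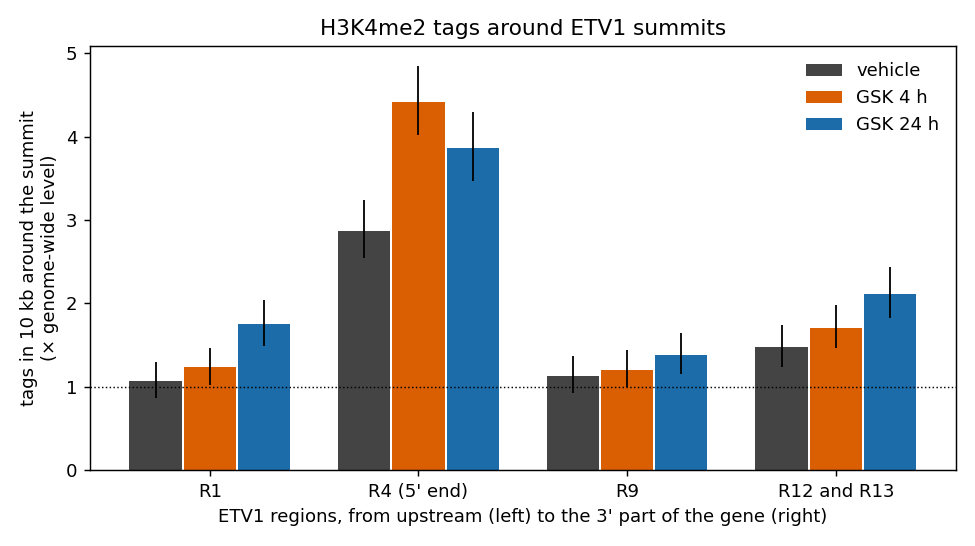
Tags in the 10 kb around the summits of the 4 ETV1 places with values in all lists, relative to the genome-wide level of each list (dotted line at 1), with 95% counting intervals. The 5′ end (R4) stands out in every list with 2.87, 4.42 and 3.87 times that level, and R1 and the pair R12 and R13 are highest in GSK 24 h with 1.75 and 2.12 times.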

How the data were processed

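The authors deposited 1 narrowPeak list per group (vehicle, GSK 4 h, GSK 24 h), made from both replicates of the 6 samples. The submitters' processing notes name BWA 0.7.2-r351, SAMtools 0.1.18 and MACS2 2.0.10.20131216 with hg19; settings were not given in the sources used here. The deposited values are a fold enrichment (a ratio), -log10 p-values and -log10 q-values, a score of about 10 times the latter and a summit offset, none normalised between lists. Only records of the autosomes and sex chromosomes entered. A whole number of fragments that explains both fold and p-value under a Poisson model (within 0.001 on the -log10 scale) was recovered for 99.998% of vehicle regions and 100% of both GSK lists. The recovered background gave the tags in 10 kb, which were whole within 0.1 for 99.999% of 246067 values under 1000 tags. The steps were tested on simulated data. Regions sharing 1 bp or more were joined into union regions. Ratios have exact conditional intervals for 2 Poisson counts. A summit is the highest point of its region, so both counts of a ratio are maxima. Values are given in full for regions within 2 kb of the 5′ end, the 6 with the highest -log10 p and those not in all lists. The gene and its lists were chosen with earlier results of these data known. Python 3.11.15, scipy 1.17.1 and pandas 2.3.3 were used. ETS family genes and cell type markers were not analysed here, since no annotation of hg19 was used.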

Additional observations from a re-analysis of the deposited data

Results flagged for a closer look

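The ETV1 regions R9 and R3 lay on opposite sides of vehicle in the GSK lists. R9, in the gene body, had a summit height of 0.963 times vehicle (0.502 to 1.83) in GSK 4 h and 1.38 times vehicle (0.777 to 2.49) in GSK 24 h. R3, upstream, had 0.969 times (0.438 to 2.12) in GSK 4 h and 1.52 times (0.771 to 3.09) in GSK 24 h. The difference between the times was not tested, and every one of these intervals holds 1. Both regions were split into 2 records in the GSK 4 h list, and the part of this split in the values was not tested. The GSK 4 h summits used lay 666 bp (R9) and 232 bp (R3) from the vehicle summits. At R9 the other GSK 4 h record lay nearer to the vehicle summit, with a height of 9.56 (18 fragments).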

How the results depend on the processing

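No paired analysis was possible because the replicates of a group had been merged into 1 list, so none could be left out either. With only regions past a -log10 q of 10, the window held 5 vehicle, 6 GSK 4 h and 7 GSK 24 h regions, of which 3 and 5 vehicle regions were in the GSK 4 h and GSK 24 h lists, 3 and 4 GSK 4 h regions in the vehicle and GSK 24 h lists, and 5 and 4 GSK 24 h regions in the vehicle and GSK 4 h lists; 3 union regions were then in all lists and 4 absent from vehicle. The regions absent from vehicle also numbered 4 past a -log10 q of 5, with lists of equal length and within the gene alone, and 5 with records within 1 kb merged. Merging left 9 GSK 4 h regions, 7 of them in the vehicle and 9 in the GSK 24 h list. The gene alone held 9 GSK 24 h regions. With 50% of both regions covered, 8 GSK 4 h regions were in the GSK 24 h list. Ranked by -log10 p, the leading record of R4 stood at percentiles 67.9, 88.8 and 64.1 in vehicle, GSK 4 h and GSK 24 h. The vehicle list had no region of its own in any of these settings that gave union regions. With the caller's fold in place of height, R1 for GSK 24 h over vehicle moved from 2.20 to 1.46, and the 5 matched regions gave 1.02 for GSK 24 h over vehicle and 0.962 for GSK 4 h over vehicle. The height ratio for GSK 4 h over vehicle, divided by the median of all matched regions, was 0.925, so its direction was not stable. These and the other alternatives run for the ratios of height stayed within the counting intervals of those ratios. The intervals are wide, so a ratio could change much and still stay within them. With the highest record of each of the 8 shared regions the ratios were 1.28 and 1.22, and without R4, an alternative chosen after seeing the data, 1.33 and 1.06.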
